A study of Homo sapiens with 19 samples.

Results

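FCGR3A and 5 further genes of Fc receptors were followed in macrophage-like THP-1 cells with and without vitamin C (vit C). The 6 genes, FCGR3A, FCGR1A, FCGR2A, FCGR2B, FCER1G and FCGRT, were picked by name out of 31033 gene names on the array with their levels in all groups already known, so their levels and differences are given as a description, without a test. Of the 6 genes, 5 have a probe, and FCGR2B has 2, which makes 6 probes of 60 bases. FCGR1A is not the name of any probe used here and was not analysed. On each of the 19 arrays all 6 probes carried the scanner's mark for a signal well over background, and none was saturated.

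THP-1 is a human acute monocytic leukaemia cell line, and every group, controls included, had first been turned into macrophage-like cells with 30 nM of the phorbol ester PMA for 16 to 18 h and rested for 2 to 3 h. Cells then stayed untreated (UT) or received 0.1 mM vit C, and total RNA was taken 8, 24, 48 and 96 h later. UT cells gave 2, 3, 2 and 3 arrays at the 4 times, and vit C-treated cells 3, 2, 2 and 2, so that the small number of arrays limits the precision of each value. The model is a single cell line in culture, so no donor variation enters the values, and in such bulk RNA fewer cells with a transcript and less of it per cell cannot be told apart.

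Slides and treatment were nearly split. The first slide held 8 of the 10 UT arrays, the second held the other UT arrays, both of 96 h, with 6 vit C arrays, the third held 1 vit C array of 48 h, and the fourth held both vit C arrays of 96 h. No slide held vit C and UT arrays of the same time, so no within-slide difference exists, and at 96 h slide and vit C cannot be told apart. The vit C arrays of 96 h were also brighter, with a 75th percentile of 806 and 924 signal units against 297 to 639 on the other arrays. Of 15 monocyte and macrophage markers 13 were well above background on all arrays, MRC1 was on none, and their summed level, most of it CSF1R, lay between 395 and 541 times the 75th percentile of the array. Single markers changed by limma, in both directions. From 8 to 96 h in UT cells AIF1, CD14, CD163 and MARCO were called higher, CD14 and MARCO by 4.23 and 4.66. CD68, ITGAX and LYZ were called lower there, by 1.51, 1.88 and 1.46. With vit C MARCO (24 and 48 h), FCN1 and LYZ (96 h) were called higher and ITGAM (48 h) and MSR1 (48 and 96 h) lower.

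Fc receptors bind the constant part of antibodies. The activating receptors of IgG pass their signal through an ITAM, a pair of tyrosines that Src kinases phosphorylate and SYK then binds, which starts the uptake of antibody-coated particles and the release of mediators. FCGR2B, the inhibitory receptor, carries an ITIM instead, which recruits the phosphatase SHIP-1 and dampens the same cells. FCGRT stands apart, because its product, the neonatal Fc receptor, binds IgG inside endosomes and returns it to the cell surface.

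Several of these genes are near copies of each other, which limits what a probe can tell. In the RefSeq annotation FCGR2A, FCGR3A, FCGR2C, FCGR3B and FCGR2B follow each other in this order on chromosome 1. The FCGR3A probe is annotated with transcripts of both FCGR3A and FCGR3B, and so is the probe named FCGR3B, so transcripts of this pair cannot be told apart. The FCGR2A probe lists 1 FCGR2A transcript and 3 accessions that the RefSeq table does not hold, so which genes it reads beside FCGR2A was not settled. To show how close the pair is, the 250 bases before the start are printed for the RefSeq promoter windows of FCGR3A (chr1:161549819-161550068, minus strand, GRCh38.p14) and FCGR3B (chr1:161631177-161631426, minus strand, GRCh38.p14), which were the most alike among 5 and 3 annotated windows. Capitals mark the 16 bases at which they differ, and 93.6% of the bases were identical.
FCGR3A: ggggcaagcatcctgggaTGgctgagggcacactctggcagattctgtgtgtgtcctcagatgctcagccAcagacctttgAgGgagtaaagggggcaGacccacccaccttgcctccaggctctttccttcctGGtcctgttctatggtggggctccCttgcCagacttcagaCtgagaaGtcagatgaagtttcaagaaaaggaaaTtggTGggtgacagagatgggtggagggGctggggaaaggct
FCGR3B: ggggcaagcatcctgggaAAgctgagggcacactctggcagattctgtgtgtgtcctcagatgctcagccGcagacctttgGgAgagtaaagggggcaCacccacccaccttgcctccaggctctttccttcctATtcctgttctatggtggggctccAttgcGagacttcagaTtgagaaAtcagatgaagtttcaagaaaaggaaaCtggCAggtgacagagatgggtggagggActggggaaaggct
The FCGR2B probe with the higher signal, in contrast, is annotated with 4 FCGR2B transcripts and no other gene, and it ends in the stretch that encodes the ITIM, the part that sets FCGR2B apart from the activating receptors. Capitals mark the 12 bases that encode the start of the ITIM.
FCGR2B: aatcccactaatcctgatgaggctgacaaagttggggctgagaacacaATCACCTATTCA

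Both strands of the 250 bases before each annotated start were searched for GAGGAA, a core that PU.1, the myeloid factor encoded by SPI1, can bind, and for TTCNNNGAA, the core of STAT-type elements. GAGGAA was present in 23.6% and TTCNNNGAA in 6.57% of all 35116 promoter windows. GAGGAA occurred 1 time each in the windows of FCGR1A and FCGR2A and 2 times in the second window of FCGR2B, and TTCNNNGAA occurred 1 time in FCGR1A and 2 times in that same FCGR2B window, with no overlap between the motifs. Neither motif was found in the windows of FCGR3A, FCGR3B, FCER1G or FCGRT, which says only that these letters are not in these bases.

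FCGR3A encodes the low-affinity IgG receptor CD16a of macrophages and NK cells. Its level was higher in vit C-treated than in UT cells at all 4 times, and higher at each later time in both. Levels are normalized log2 signals, that is, the log2 of the processed signal minus the 75th percentile of the array, so that 0 is the level of that percentile. UT arrays of 8 h read -3.37 and -3.37 for FCGR3A, those of 24 h read -2.04, -2.01 and -2.22, those of 48 h read -0.87 and -0.77, and those of 96 h read 1.15, 0.96 and 1.29. The vit C arrays of 8 h read -1.72, -1.68 and -1.49, those of 24 h read -0.15 and 0.08, those of 48 h read 1.14 and 0.92, and those of 96 h read 3.31 and 3. The lowest vit C array lay above the highest UT array at each time, and replicate arrays lay within an SD of 0.22 or less.

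The log2 difference between vit C-treated and UT cells in FCGR3A was 1.74 (SE 0.18, 3.34-fold) at 8 h, 2.05 (SE 0.18, 4.14-fold) at 24 h, 1.85 (SE 0.20, 3.61-fold) at 48 h and 2.02 (SE 0.18, 4.06-fold) at 96 h. The intervals of 1 SE around these 4 values overlapped, while the level itself moved much further over time. From 8 to 96 h the difference was 4.51 (SE 0.18, 22.7-fold) in UT cells, or 3.39 with normexp background correction, and 4.79 (SE 0.18, 27.6-fold) in vit C-treated cells. UT cells of 8 h and vit C-treated cells of 96 h, the lowest and highest groups, were 6.53 log2 units or 92.2-fold apart.

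Ordered by their means, the groups ran from UT 8 h at -3.37 over UT 24 h at -2.09, vit C 8 h at -1.63, UT 48 h at -0.82, vit C 24 h at -0.04, vit C 48 h at 1.03 and UT 96 h at 1.13 to vit C 96 h at 3.15. Only vit C 48 h and UT 96 h overlapped among neighbours in this order. The vit C mean of 8 h lay between the UT means of 24 and 48 h, the vit C mean of 24 h between the UT means of 48 and 96 h, and that of 48 h within the range of the UT arrays of 96 h.

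**Figure D1:**
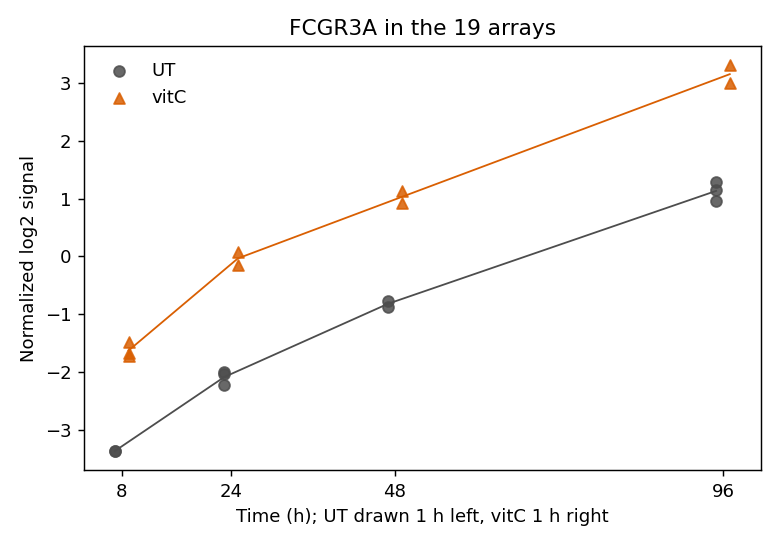
Normalized log2 signal of FCGR3A (vertical axis) against hours after the start of vit C treatment (horizontal axis), with a point for each of the 19 arrays and lines through the group means. The vit C arrays lie above the UT arrays at each time, by 1.74 to 2.05 log2 units on average, and vit C arrays of 48 h reach the range of UT arrays of 96 h.

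The UT arrays of 96 h came from 2 slides, and FCGR3A was at 1.15 on the first and at a mean of 1.13 on the second. With the slide as a fixed block, which rests on these arrays, the vit C differences of 8, 24 and 48 h were 1.76, 2.07 and 1.98, and none could be had at 96 h. Background correction with normexp gave a smaller difference at 8 h, 1.09 in place of 1.74. T, B and NK cell markers were checked because NK cells carry FCGR3A. Of 15 such markers 4 were well above background on all arrays, CD3E, CD79A and NKG7 among them, and CD3D and KLRD1 on none. Their summed level, in multiples of the 75th percentile, was 2.13 to 2.73 in UT and 4.04 to 4.55 in vit C-treated cells at 8 h, 2.37 to 3.26 against 3.06 to 5.31 at 24 h, 5.98 to 7.01 against 6.90 to 7.59 at 48 h, and 4.89 to 6.92 against 5.40 to 5.47 at 96 h. The sum was higher with vit C at 8 h, as FCGR3A was, and overlapped between the treatments at 24, 48 and 96 h. Most of the sum at 8 h was CD79A, a B cell gene, with means of 0.30 in UT and 1.72 in vit C-treated cells. The differences of the other markers at 8 h went both ways, from -1.45 for PRF1 to 1.79 for NCR1, with NKG7 at 0.02 and GNLY at -0.46. NCR1, an activating NK receptor that was well above background on 12 of 19 arrays, was higher with vit C by 2.13 at 48 h (limma q = 0.0166) and by 1.47 at 96 h (q = 0.0355). It was left out of the test at 8 and 24 h for opposing probes, and at 8 h none of the 2 UT arrays and 1 of the 3 vit C arrays was well above background. GNLY, a granule protein of NK and T cells, rose from 8 to 96 h by 5.34 in UT cells (limma q = 7.74e-09) and by 5.98 in vit C-treated cells (q = 6.53e-10), and was not called between the treatments at any of the 4 times. KLRD1 was well above background on no array, and NKG7 was not called with vit C at any time. The part of these markers in the FCGR3A levels was not tested.

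FCGR3B, the near copy of FCGR3A known from neutrophils, had a dim probe, which passed background on 11 of the 19 arrays but on no UT array of 8 or 24 h. Its vit C values at 96 h were 0.05 and -0.50 against -3.23, -2.63 and -4.22 in UT cells, a difference of 3.13 (SE 0.57, 8.77-fold) with no overlap. This gene is not among the 6 and was tested with limma, with q = 0.00554 at 96 h, a call lost without vit C replicate 1 and with only the groups compared, and normexp gave a difference of 2.04. Of the 10 neutrophil and mast cell markers on the array none was well above background on all arrays, and CEACAM8 and MS4A2 were on none. Since the FCGR3A and FCGR3B probes list each other's transcripts, the source of this signal was not tested. For the same reason the q of FCGR3B is not a test independent of FCGR3A, whose levels were known when it was picked. The summed level of the 9 markers other than FCGR3B was 4.06 to 4.39 in UT and 3.77 to 4.78 in vit C-treated cells at 8 h, and 0.545 to 0.693 against 0.447 to 0.496 at 96 h, where it was lower with vit C while FCGR3B was higher. Single markers went both ways at 96 h. ELA2, the neutrophil elastase, was called higher with vit C by 1.48 (limma q = 0.0369). It was well above background on 17 arrays in all, but on only 1 of the 3 UT arrays of 96 h. KIT, the stem cell factor receptor of mast cells, was at least 8.26-fold lower (q = 0.000263), and IL8RB differed by -0.17, so the sum does not stand for each marker.

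FCGR1A encodes the high-affinity IgG receptor. Only its near-identical relative FCGR1B, today listed as a pseudogene, had a probe, and transcripts of both may bind it. FCGR1B in UT cells read 3.53 and 3.68 at 8 h, 1.86, 1.95 and 2.17 at 24 h, 1.43 and 1.34 at 48 h, then 3.71, 4.13 and 4.19 at 96 h. Under vit C the values were 3.46, 3.42 and 3.51, then 1.81 and 1.87, then 1.91 and 1.96, and at 96 h 3.85 and 3.72. The level thus dipped in the middle of the time course in both and came back by 96 h, a course unlike that of FCGR3A. The vit C difference was -0.14 (SE 0.18) at 8 h, -0.15 (SE 0.18) at 24 h, 0.55 (SE 0.20, 1.47-fold) at 48 h and -0.22 (SE 0.18) at 96 h, and groups did not overlap at 8 and 48 h.

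FCGR2A encodes an activating IgG receptor with an ITAM in its own tail. It showed little difference at the first 3 times and was higher with vit C at 96 h. UT arrays read -1.17 and -0.99 (8 h), -1.66, -1.61 and -1.78 (24 h), -1.49 and -1.46 (48 h), and -0.33, -0.98 and -0.16 (96 h). With vit C they read -1.18, -1.28 and -1.41, then -2.32 and -2.08, then -1.32 and -1.72, and 0.61 and 0.53 at 96 h. All vit C arrays lay below the UT arrays at 8 and 24 h and above them at 96 h, while the groups overlapped at 48 h.

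The vit C difference in FCGR2A was -0.21 (SE 0.23) at 8 h, -0.52 (SE 0.23, 1.43-fold lower) at 24 h, -0.04 (SE 0.25) at 48 h and 1.05 (SE 0.23, 2.08-fold) at 96 h. With the slide as a fixed block the first 3 values became 0.02, -0.28 and 0.40, so that the direction at 8 and 48 h turned. From 8 to 96 h FCGR2A was 0.59 (SE 0.23) higher in UT and 1.86 (SE 0.23, 3.62-fold) higher in vit C-treated cells. Replicate 2 lay lowest among the UT arrays of 96 h.

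FCGR2B, the inhibitory receptor, was higher at 96 h than at 8 h in both treatments, and vit C arrays stood apart from UT arrays at 96 h on both of its probes. On the probe that ends in the ITIM, UT cells had -3.67 and -3.46 at 8 h, -2, -2.34 and -2.10 at 24 h, -0.75 and -0.73 at 48 h and -0.25, -0.74 and -1.14 at 96 h. With vit C the values were -3.18, -3.93 and -3.76, then -2.47 and -2.16, then -0.66 and -0.77, and 0.97 and 0.57 at 96 h. The groups overlapped at 8, 24 and 48 h on this probe, with differences of -0.06, -0.17 and 0.03 (SE 0.27, 0.27 and 0.30). At 96 h the difference was 1.48 (SE 0.27, 2.79-fold) without overlap.

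UT cells reached their 96 h level of this FCGR2B probe by 48 h, with means of -0.74 at 48 h and -0.71 at 96 h, whereas vit C-treated cells went on from -0.71 to 0.77. From 8 to 96 h the difference was 2.85 (SE 0.27, 7.23-fold) in UT and 4.39 (SE 0.27, 21.0-fold) in vit C-treated cells. The UT array of 96 h on the first slide was 0.68 above the mean of those on the second, and with the slide as a fixed block the vit C differences of 8, 24 and 48 h were 0.63, 0.51 and 0.77.

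The second FCGR2B probe, annotated with an Ensembl transcript, gave another course before 96 h. Its UT values were -2.97 and -2.62, then -2.70, -2.86 and -2.77, then -1.94 and -2.04, and -1.58, -1.74 and -1.20 at 96 h. With vit C they were -3.45, -3.60 and -3.98, then -3.11 and -3.64, then -2.08 and -2.23, and -0.27 and -0.47 at 96 h. All vit C arrays lay below the UT arrays at 8, 24 and 48 h, by 0.89 (SE 0.23), 0.59 (SE 0.23) and 0.16 (SE 0.25), and above them at 96 h, by 1.13 (SE 0.23, 2.19-fold). The probes of FCGR2B therefore disagree at 8 h, where the mean of both gave a difference of -0.47, and both were higher with vit C at 96 h.

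FCER1G encodes the common γ chain, the ITAM adaptor without which the products of FCGR3A and FCGR1A cannot signal in macrophages. Its group means spanned the least of the 6 probes. All 19 values lay between 4.65 and 5.41, and the group means spanned 0.58 log2 units or 1.49-fold. In UT cells they were 5.02 and 5.13 at 8 h, 4.89, 5.38 and 5.16 at 24 h, 5.41 and 5.32 at 48 h and 5.02, 4.99 and 5.05 at 96 h. With vit C they were 5.06, 5.04 and 5.16, then 4.92 and 4.65, then 5.34 and 5.18, and 5.18 and 5.09 at 96 h. The vit C difference was 0.01 (SE 0.18), -0.36 (SE 0.18), -0.10 (SE 0.19) and 0.11 (SE 0.18) from 8 to 96 h, and the groups overlapped at each time but the last.

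FCGRT was lower at 96 h than at 8 h in both treatments, opposite to FCGR3A and FCGR2B. UT cells had 5.82 and 5.6 at 8 h, 5.65, 5.72 and 5.92 at 24 h, 5.67 and 5.59 at 48 h and 4.97, 4.92 and 4.25 at 96 h. With vit C the values were 5.48, 5.38 and 5.67, then 5.39 and 5.38, then 4.76 and 5.10, and 4.43 and 4.26 at 96 h. In UT cells the 3 earlier times lay together and 96 h below them, while in vit C-treated cells the 48 h arrays were already lower than those of 8 and 24 h.

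The vit C difference in FCGRT was -0.20 (SE 0.22), -0.38 (SE 0.22), -0.71 (SE 0.24, 1.63-fold lower) and -0.37 (SE 0.22) from 8 to 96 h, and the groups did not overlap at 24 and 48 h. With the slide as a fixed block it was 0.19, 0.01 and -0.49 at 8, 24 and 48 h, so that only the 48 h value stayed lower. The difference from 8 to 96 h was -1 (SE 0.22, 2-fold lower) in UT and -1.17 (SE 0.22, 2.24-fold lower) in vit C-treated cells. UT replicate 3 of 96 h, at 4.25, lay just below both vit C arrays of that time, and without it the UT difference was -0.77.

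**Figure D2:**
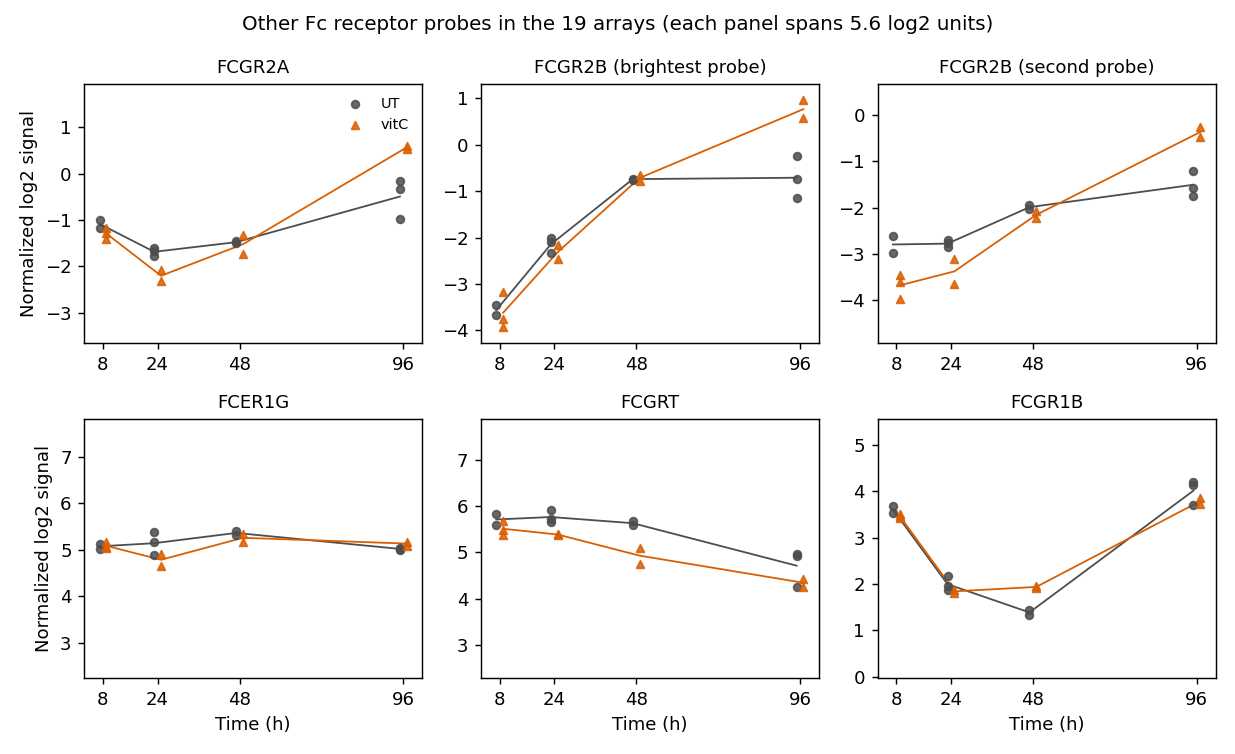
Normalized log2 signal (vertical axis, same length in each panel) against hours after the start of treatment for the probes of FCGR2A, FCGR2B, FCER1G and FCGRT and for FCGR1B, with a point for each array and lines through the group means. FCER1G stays between 4.65 and 5.41, FCGR1B dips at 24 and 48 h, and both FCGR2B probes and FCGR2A have their vit C arrays on top at 96 h.

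**Figure D3:**
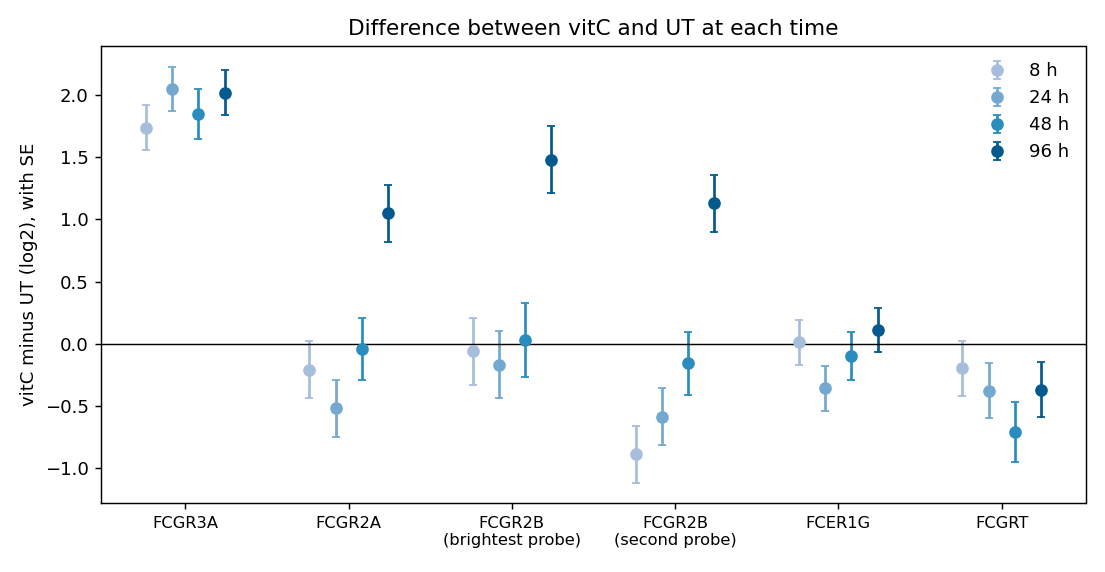
Difference between vit C-treated and UT cells (log2, vertical axis) for the 6 probes at 8, 24, 48 and 96 h, with bars for the standard error of the limma fit. FCGR3A lies between 1.74 and 2.05 at each time, FCGR2A and FCGR2B are above 1 at 96 h, and FCER1G lies within 0.36 of 0.

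A gene was called at an absolute log2 difference of at least 1 with a Benjamini-Hochberg q of at most 0.05 over all genes tested. The members were chosen on these levels, so their calls are only listed, beside the share of all tested genes called in the same direction. No gene at all, members included, was called by the methods' t-test at 24 and 96 h, or at 48 h with only the groups compared. FCGR3A was the 1 member called higher with vit C at 8 h, where 0.33% of all genes were, at 24 h, where 0.835% were, and at 48 h, where 2.1% were and FCGR2B was left out of the test because its probes went in opposite directions. FCGR3A, FCGR2A and FCGR2B were the 3 members called higher at 96 h, with 2.73% of all genes, and FCGR2A was under the size threshold at 0.81 without UT replicate 2 and at 0.97 with normexp. In UT cells at 96 h against 8 h, FCGR3A and FCGR2B were called higher, with 8.9% of all genes, and FCGRT lower, with 7.16%, and the FCGRT difference was -0.77 without UT replicate 3 of 96 h and -0.74 with the slide as a fixed block.

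The genes whose level ran most like that of FCGR3A over the 19 arrays were APOL3, an apolipoprotein L gene, with a Pearson r of 0.974, the unnamed transcript THC2682885 with 0.964, NOD2, an intracellular sensor of bacterial cell wall fragments, with 0.958, SV2B, a vesicle glycoprotein gene, with 0.951, and BTN3A3, a butyrophilin gene, with 0.938. They were taken from 9317 genes that were well above background on all arrays and whose group means spanned at least 1 log2 unit. All arrays share the same times and treatments, so r describes a shared course and nothing more. Their vit C differences at 8 and 48 h were 0.68 and 1.24 for APOL3, 0.69 and 2.56 for THC2682885, 0.11 and 1.85 for NOD2, 0.64 and 1.29 for SV2B and 0.66 and 0.69 for BTN3A3, so that none had the difference of FCGR3A at 8 h. Among the receptors, r with FCGR3A was 0.936 for FCGR3B, 0.854 and 0.753 for the FCGR2B probes, 0.601 for FCGR2A, -0.0162 for FCER1G and -0.897 for FCGRT.

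Genes that work with Fc receptors were taken from 6 lists with 146 genes, of which 144 are on the array. They include FCGR3B, whose probe also lists a transcript of the member FCGR3A. With vit C few of them changed. At 8 h none of 100 tested was called by limma, with 2 past the size threshold at an unadjusted p of 0.05, and also none by the methods' t-test, against 0.553% of all genes called in either direction (0.33% higher and 0.223% lower). At 24 h 2 of 115 rose and 1 fell, against 1.67% of all genes (0.835% higher and 0.839% lower). At 48 h 3 of 115 rose and 4 fell, against 3.64% (2.1% higher and 1.53% lower), and at 96 h 6 of 112 rose and 2 fell, against 12.8% (2.73% higher and 10% lower). That split of all genes at 96 h, 719 higher and 2644 lower, turned to 560 and 440 under quantile normalization and to 734 and 708 with the percentile taken over detected probes. The median difference of the pathway genes well above background was -0.18, -0.23, -0.16 and -0.04 at the 4 times, beside -0.08, -0.04, -0.07 and -0.06 over all genes. The counts moved with single arrays. Without UT replicate 3 of 96 h, 10 genes rose and 16 fell at 96 h, and without vit C replicate 1 or 2 of that time the number called was 1 and 3. At 24 h 1 gene was called without vit C replicate 2, and at 48 h leaving out any of the 4 arrays gave 2 or 3. The counts over all genes moved in the same fits, between 14 and 83 at 8 h, 92 and 368 at 24 h, 281 and 536 at 48 h and 479 and 5965 at 96 h, beside 139, 437, 926 and 3363 with all arrays, so the shares of all genes given above rest on single arrays too.

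**Figure D4:**
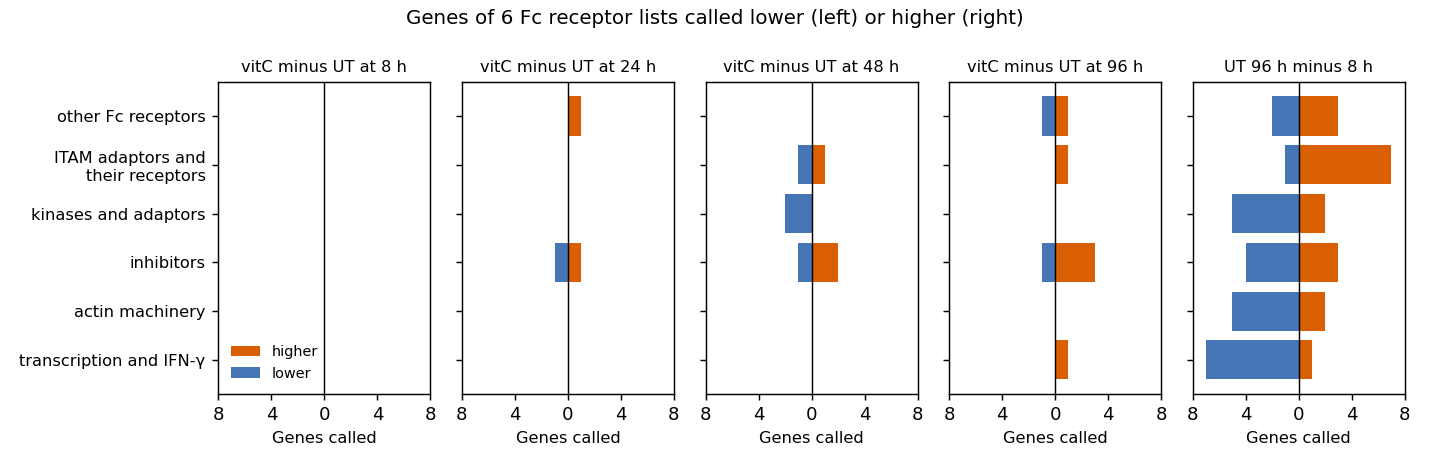
Number of genes of each of the 6 Fc receptor lists called lower (bars to the left) and higher (bars to the right) in the 4 comparisons of vit C-treated with UT cells and in UT cells at 96 h against 8 h. No gene is called at 8 h, the vit C comparisons hold at most 3 genes a list and direction, and the UT comparison holds up to 7.

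Other Fc receptors and Fc-binding proteins, 19 on the array, gave 1 rise among 14 tested at 24 h and 1 rise and 1 fall among 15 tested at 96 h. Of all genes 1.67% and 12.8% were called at these times. FCGBP, an IgG Fc-binding mucin-like protein, rose at 24 h by 1.13 (limma q = 0.00849), but with normexp the difference was 0.38, and the call was also lost without vit C replicate 2. FCGR3B rose at 96 h, as given above, on a probe that also lists FCGR3A. MS4A2, the β chain of the IgE receptor, was called lower at 96 h (q = 0.0385), but it was well above background on none of the 19 arrays, and no fold is given. The 2 other genes with the largest differences at 48 or 96 h were FAIM3, the IgM receptor, at -0.78 and -1.13 (SE 0.41 and 0.38), which did not pass, and FCRLB at 1.90 and -0.63 (SE 1.11 and 1.01), which was not tested there because its probes went in opposite directions.

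Among 16 ITAM adaptors and receptors that use them, TREM2, a lipid-sensing receptor that signals through TYROBP, fell at 48 h by 1.29 on the log2 scale on the probe called (limma q = 0.00513), and it kept its call without any of the 4 arrays. CLEC4E, the receptor Mincle, which pairs with the product of FCER1G, rose at 48 h by 1.33 (q = 0.0438) and lost the call without any of the 4 arrays. CLEC5A, a TYROBP-coupled lectin, rose at 96 h by 2.20 (q = 0.00379), a call lost without 1 of the 5 arrays. CLEC5A lay between 0.82 and 2.29 over 12 other settings and lost its call in 3 of them. Of the 16 genes 15 were tested at 48 h and 14 at 96 h, where 3.64% and 12.8% of all genes were called. Of 35 kinases and adaptors of activating signals, 29 were tested at 48 h, where 1.53% of all genes were called lower, and 2 fell. LCP2, the scaffold SLP-76, fell by 1.03 (limma q = 0.0389). VAV3, an exchange factor for small GTPases, fell by 1.05 on 1 probe (q = 0.0164), with -0.47 on its brightest probe. LCP2 lost its call without any of the 4 arrays and VAV3 without 3 of them. CRKL, an adaptor, was at 1.04 (SE 0.33) at 48 h but was not tested for opposing probes.

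Inhibitors of Fc receptor signals held the most calls with vit C. SLA, an adaptor that lowers the level of receptors coupled to SYK and ZAP70, rose at 24 h by 1.89 (limma q = 0.00012), at 48 h by 1.26 (q = 0.00281) and at 96 h by 2.04 on a second probe (q = 0.0164), with 0.74 on its brightest. The SLA call was lost without 1 of the 5 arrays at 24 h and without 2 of the 5 at 96 h, and was kept without each of the 4 arrays at 48 h. SIGLEC9, an ITIM receptor for sialic acid, rose at 48 h by 1.47 (q = 0.0363) and at 96 h by 1.62 (q = 0.0104), and lost its call without any of the 4 arrays at 48 h and without 2 of the 5 at 96 h. LILRB2, an ITIM receptor for MHC class I, rose at 96 h by 1.20 (q = 0.0482), a call lost without 4 of the 5 arrays. SIGLEC9 lay between 0.72 and 2.22 at 48 h over 14 other settings and lost its call in 4 of them. At 96 h it lay between 1.04 and 1.71 over 12 settings and lost the call in 2. In the opposite direction, CD300A, an ITIM receptor for phospholipids, fell at 24 h by 1.52 (q = 0.0149) and at 48 h by 1.24 (q = 0.0362) on a probe other than its brightest, which gave -0.22 and -0.60. The CD300A call was lost without 2 of the 5 arrays at 24 h and without any of the 4 at 48 h. CD300LF, a further inhibitory receptor of that family, fell at 96 h by 1.93 on 1 probe (q = 0.00207).

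The actin machinery of the phagocytic cup, 30 genes, held no call with vit C by limma at any of the 4 times, with 0, 2, 0 and 1 genes past the size threshold at an unadjusted p of 0.05. Among its genes well above background on all arrays, 2 had the largest differences at 48 or 96 h on the brightest probe. MARCKS, a membrane-actin linker, rounded to 1 at 48 h but lay just under the size threshold (limma q = 0.0301). MYO10, a myosin of filopodia, was at -0.94 at 48 h. Of 20 transcription factors and interferon-γ pathway genes linked to Fc receptor transcription, IRF8, a factor of monocyte development, was called, higher at 96 h by 1.27 (limma q = 0.0349), and lost without 4 of the 5 arrays. At 96 h 14 of the 20 were tested, and 2.73% of all genes were called higher. IRF1, an interferon-induced factor, stood at 0.78 at 48 h and -0.54 at 96 h without passing. SPI1 was tested in all 4 vit C comparisons and called in none, CEBPB in those of 8 and 48 h likewise, and CEBPA was left out of the test each time for opposing probes.

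Time in culture changed many more of these genes. In UT cells 18 of 117 pathway genes tested rose and 24 fell from 8 to 96 h, against 16.1% of all genes (8.9% higher and 7.16% lower), with a median of -0.19 beside -0.08 over all genes. Of the 16 ITAM adaptors and their receptors tested, 7 rose (B2M, CLEC4E, CLEC5A, CLEC7A, LILRA2, OSCAR and TREM1), 1 fell (CD300LB) and 8 did not pass, the adaptors TYROBP and HCST among them, and the median was 1.15 over the 13 well above background. TREM1, an amplifier of inflammatory signals, rose by 2.73 (limma q = 1.8e-06), and B2M, the light chain that FCGRT needs, rose by 1.19 (q = 0.00053) while FCGRT itself was lower by 1 log2 unit.

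Of the other Fc receptors, FCRLA, an intracellular Ig-binding protein, rose by 2.94 in UT cells (limma q = 1.3e-07), FCGBP by 3.44 (q = 2.8e-08), and FCGR3B rose at least 3.73-fold. FCER2, the low-affinity IgE receptor, was well above background on both arrays of 8 h and on none of 96 h and was at least 7.96-fold lower (q = 0.000224), and FCAR, the IgA receptor, fell by 1.77 on the probe called (q = 2.71e-05). Bounds set the bright group against the lowest signal counted as well above background on each array.

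Kinases, inhibitors and regulators went both ways in UT cells. Among the kinases and adaptors PLD1, a phospholipase, rose by 1.65 (limma q = 2.98e-05), and FGR, LAT, PRKCA, SPHK1 and VAV3 fell, the Src kinase FGR by 1.73 (q = 2.4e-05). Among the inhibitors SLA rose by 4.56 (q = 2.42e-09), LILRB2 by 4.34 (q = 1.58e-06) and SIGLEC9 by 1.66 (q = 0.00201), and PTPN6, the phosphatase SHP-1, CSK, CD300A and STS-1, an older name of UBASH3B, fell. The actin genes MARCKS and PAK1 rose and GSN, LIMK1, MYO10, RAC2 and VASP fell. Of the regulators IFNGR1 rose by 1.16 (q = 0.00295), and IFNGR2, IRF8, SMAD3, SOCS1, SPI1, STAT3 and TFEC fell, SPI1 by 1.05 (q = 0.0235), while FCGR3A was 4.51 higher. Over 13 other settings the call of PTPN6 was lost 10 times and that of STAT3 9 times, with STAT3 between -1.89 and 0. The calls of SPI1, PRKCA and VAV3 were lost 5 times each there. With 1 of the 5 arrays left out in turn, the calls of CD300A, STS-1 and PAK1 were lost 4 times, those of PTPN6, CSK, SPI1 and STAT3 3 times, those of IRF8, LILRA2, LIMK1, PRKCA and TFEC 2 times and those of CLEC7A, IFNGR1 and SPHK1 1 time, and SPI1 lay between -1.25 and -0.71.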

How the data were processed

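Total RNA of PMA-differentiated THP-1 cells was hybridised by the authors to one-colour (Cy3) Agilent arrays, 1 per sample, and replicates are called biological in the methods. The deposited intensity values are spot signals from Agilent Feature Extraction (10.5.1.1 in the file headers), detrended within the array and not scaled between arrays. The deposited log2 values are those signals after a shift to the 75th percentile of each array by the authors, and served as an alternative. From the 52857 spots per array, 51538 non-control spots were kept, spots of the same probe were averaged as log2 values, which left 50238 probes, and the 75th percentile was subtracted. This centring assumes that most transcripts keep their level, and signals near background understate or blur a difference.

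Groups came from the sample titles. Group means were fitted to all 19 arrays with limma 3.58.1 (lmFit and eBayes) in R 4.3.3, 2-sided, without genes having probes of opposing direction. Calls needed an absolute log2 difference no smaller than 1 and q, adjusted by Benjamini-Hochberg, no larger than 0.05. The value of a gene is its probe with the highest mean, and a called gene is given by its called probe. Folds are 2 to the power of the log2 difference. The procedure was tested on simulated data. The members and gene lists were chosen with earlier results of these data known. Pathway genes were named where called, and otherwise the 2 with the largest difference at 48 or 96 h per list, and a few genes of these lists are not reported here by name. Promoter sequences are from RefSeq (GRCh38.p14), and figures were drawn with matplotlib 3.10.9.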

Additional observations from a re-analysis of the deposited data

Results flagged for a closer look

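Some genes lay above UT cells on all vit C arrays at 1 time and below them on all vit C arrays at another, and the difference between the times was not tested. Among the members, the vit C difference in FCGR2A was 1.05 at 96 h and -0.52 at 24 h, 1.57 apart, and that of the second FCGR2B probe was 1.13 at 96 h and -0.89 at 8 h, 2.02 apart. The slide of the vit C arrays of 96 h held no other group. FCGR1B stood at 0.55 at 48 h and -0.14 at 8 h, 0.69 apart. Of the pathway genes, on their brightest probe, IRF8 was at 1.27 at 96 h and -1.09 at 24 h (2.36 apart), SLA at 1.89 at 24 h and -0.20 at 8 h (2.09 apart), CD300A at 0.99 at 8 h and -0.60 at 48 h (1.59 apart), and FCGBP at 1.13 at 24 h and -0.17 at 48 h (1.30 apart). With groups of 2 or 3 arrays, such patterns occur in some genes by chance.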

How the results depend on the processing

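FCGR3A kept its direction under every alternative run. Its call was lost where no gene was called, by the t-test at 24 and 96 h and with only the groups compared at 48 h. Whether its call held in the other settings was not recorded, and the t-test called only 11 genes in all at 8 h and 1 at 48 h. Background correction by normexp lowered its vit C differences of 8, 24 and 48 h to 1.09, 1.5 and 1.6, and its UT difference from 8 to 96 h to 3.39. With 1 array left out, a vit C difference of 1.67 to 1.78 was seen at 8 h, of 1.94 to 2.16 at 24 h, of 1.74 to 1.96 at 48 h, and of 1.87 to 2.17 at 96 h, and an array left alone in its group takes its spread from the others. Among the other members, FCGR2A at 96 h was 0.81 to 1.22 with 1 array left out, and FCGRT in UT cells from 8 to 96 h was -1.13 to -0.77. Pathway calls were less stable and the causes were not tested, and counts over all genes moved with them. With the slide as a fixed block, all genes gave 20 calls at 24 h and 138 at 48 h, with only the groups compared 195, 0 and 3 at 24, 48 and 96 h, and by the t-test 0, 1 and 0. At 8 h these settings gave 9, 502 and 11, beside 139. At 24 h, 6 were called without dim probes, 5 after quantile normalization, 1 each with the slide as a fixed block and with only the groups compared, 0 by the methods' t-test and 1 to 4 with 1 array left out. At 48 h, 3 were called with normexp, 2 with the slide as a fixed block, 0 with only the groups compared, 0 by the t-test and 2 to 3 with 1 array left out. At 96 h, 5 were called after quantile normalization, 0 with only the groups compared, 0 by the t-test and 1 to 26 with 1 array left out. In UT cells from 8 to 96 h, 20 were called with only the groups compared and 3 by the t-test, and 31 to 42 with 1 array left out. At 8 h the count was 0 in every setting. Deviations of same-numbered arrays from their group means correlated at -0.336 to 0.129, so the numbers were not taken as a pairing. With the replicate number as a block, 4 genes were called at 48 h and 5 at 96 h, and the crossed numbers at 48 h, an alternative added after seeing the data, gave 4. The difference of 1.71 in FCGR3A at 8 h under the replicate block lay close to the 1.74 without it. At 96 h the split over all genes, 719 higher and 2644 lower, turned to 560 and 440 under quantile normalization, to 734 and 708 where detected probes alone set the percentile, and was 474 and 289 with floored signals and 227 and 595 with normexp, and quantile and normexp moved the median of all genes by 0.11 and -0.25. At 24 h, 218 higher and 219 lower became 366 and 192 after quantile normalization and 156 and 93 with normexp, and at 8 h, 83 and 56 became 185 and 16 with normexp. The slide block could not be fitted for vit C at 96 h. Signals near background limit FCGR3B, CLEC5A, CLEC7A, FCER2 and MS4A2, whose differences shrink or lose meaning there.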
